A study of Mus musculus with 31 samples.

Results

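The genes described here are 8 genes of cell-to-cell junctions in antigen-presenting cells of the mouse heart: Cdh1 (E-cadherin), Cldn1 (claudin 1), Lsr (angulin 1, the lipolysis-stimulated lipoprotein receptor), Epcam, Jup (plakoglobin), Ctnnb1 (beta-catenin), Ctnna1 (alpha-catenin) and F11r (JAM-A). They are 8 of the 24421 gene symbols counted in each of 31 libraries, and all 8 were found. They were chosen by name, on measured values of these same libraries, for their levels in cDC2 against the other cell types. Comparisons of the 8 genes between cell types, of their levels and of their response to infarction, are therefore given as a description with no test. The effect of infarction within a cell type was tested, but the cDC2 levels that led to the choice enter that test too. Not all 8 genes were highest in cDC2. Cdh1, F11r and Epcam were highest in cDC2 of infarcted hearts, apart from the next group. Lsr had its highest mean there too, and Jup in steady-state cDC2, each overlapping cDC1 of the same state. Cldn1 was highest in cDC1 in both states. Ctnna1 had its highest mean in cDC1 of infarcted hearts and Ctnnb1 its lowest in steady-state cDC2, both with overlap.

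All mice were Balb/c, aged 8 to 12 weeks, and were either left in steady state (SS) or given a myocardial infarction (MI), for which the left anterior descending coronary artery was tied permanently. From each heart digest, FACS gave cDC1, cDC2, CD11c positive monocyte-derived cells (moDCs) and CD11c negative monocyte-derived cells (macrophages). The 8 groups had 4 libraries each, except MI cDC2 with 3. The sources used here do not say how long after ligation hearts were taken, which antibodies defined the sort, or whether hearts were pooled for a library. P-values therefore measure only the spread between these samples, which may be technical. Any difference in handling between SS and MI hearts cannot be told apart from infarction. Libraries held 9148624 to 16531349 reads in genes. Summed markers of cDC1 and cDC2 set those populations apart as labelled: 8 cDC1 markers came to 7361 to 9478 CPM (a library's reads of a gene scaled to a common library size) in cDC1 and at most 867 CPM elsewhere, and 6 cDC2 markers to 4456 to 6121 CPM in cDC2 and at most 3274 CPM elsewhere. For 8 macrophage markers, SS moDC replicate 2 (17458 CPM) lay above the lowest macrophage library (16903 CPM), and 4 markers of monocyte-derived cells did not separate the groups, with SS cDC2 replicate 2 (4751 CPM) above SS moDC replicate 4 (3749 CPM) and SS macrophage replicate 4 (3895 CPM). In SS, libraries numbered 1 and 4 had more reads in no annotated feature (11.6% to 16.9%) than those numbered 2 and 3 (6.42% to 9.26%).

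Epithelial cells hold together through adherens junctions, in which cadherins such as E-cadherin bind the same cadherin on the neighbouring cell and are tied to actin through beta-catenin or plakoglobin and alpha-catenin, and through tight junctions, which claudins seal and to which angulins and JAM-A belong. Leukocytes make no such continuous sheet, but E-cadherin and Epcam are known from Langerhans cells of the skin, which adhere to keratinocytes, and E-cadherin binds the integrin CD103 (Itgae with Itgb7). Beta-catenin and plakoglobin also act in the nucleus, beta-catenin as the effector of Wnt signals.

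All 8 genes are protein-coding. On the GRCm38 build, the surface proteins are coded by Cdh1 on chromosome 8 from 106603351 to 106670246 (plus strand), Epcam on chromosome 17 from 87635979 to 87651129 (plus strand), Cldn1 on chromosome 16 from 26356642 to 26371841 (minus strand), Lsr on chromosome 7 from 30957770 to 30973464 (minus strand) and F11r on chromosome 1 from 171437535 to 171464603 (plus strand). Of the plaque proteins, Jup on chromosome 11 from 100368958 to 100397763 (minus strand) and Ctnnb1 on chromosome 9 from 120929216 to 120960507 (plus strand) code for plakoglobin and beta-catenin. Values refer to reads counted per gene symbol. Ctnnb1 overlaps Ulk4 and 4930593C16Rik on the opposite strand. Lsr overlaps the antisense models Gm17077 and Gm4673. Whether strand was used in counting is not given, so reads of such partners cannot be told apart.

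RefSeq promoters of the same build (GRCm38.p6) were found for 6 of the 8 genes. The E-box CACCTG, the motif bound by the E-cadherin repressors of the Snail and Zeb families, was searched for on both strands, so that its reverse complement counts too, in the 250 bases before each start. It occurred 4 times before Lsr, 2 times before Epcam, 1 time before F11r and 0 times before Cldn1, Jup and Ctnnb1, and 17.2% of 32851 promoters of that length hold it. The TCF/LEF letters CTTTGAT, searched on both strands and found in 3.21% of promoters, occurred before none of the 6 genes. These matches are a description of letters, not sites. The 4 sequences below belong to the 4 surface proteins with a promoter in that table, 3 with the E-box in capitals and Cldn1 without it, each 5′ to 3′ on the gene's strand.
Lsr (chr7:30973470-30973719, minus strand): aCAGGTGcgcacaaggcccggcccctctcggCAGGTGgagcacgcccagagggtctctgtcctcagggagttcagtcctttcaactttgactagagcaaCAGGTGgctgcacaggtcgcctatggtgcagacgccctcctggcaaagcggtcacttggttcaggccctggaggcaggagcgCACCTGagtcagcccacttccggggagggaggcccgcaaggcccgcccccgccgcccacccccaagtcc
Epcam (chr17:87635729-87635978, plus strand): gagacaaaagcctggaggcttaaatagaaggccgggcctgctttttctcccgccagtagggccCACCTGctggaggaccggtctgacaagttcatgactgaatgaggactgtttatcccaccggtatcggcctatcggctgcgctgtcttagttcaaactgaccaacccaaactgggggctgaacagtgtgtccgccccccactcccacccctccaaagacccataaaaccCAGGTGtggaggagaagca
F11r (chr1:171437311-171437560, plus strand): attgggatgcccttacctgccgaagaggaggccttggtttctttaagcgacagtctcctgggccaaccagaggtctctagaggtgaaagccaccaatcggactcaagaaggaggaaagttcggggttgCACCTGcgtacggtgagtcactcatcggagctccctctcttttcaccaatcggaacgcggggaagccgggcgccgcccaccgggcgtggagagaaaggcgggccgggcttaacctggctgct
Cldn1 (chr16:26371840-26372089, minus strand): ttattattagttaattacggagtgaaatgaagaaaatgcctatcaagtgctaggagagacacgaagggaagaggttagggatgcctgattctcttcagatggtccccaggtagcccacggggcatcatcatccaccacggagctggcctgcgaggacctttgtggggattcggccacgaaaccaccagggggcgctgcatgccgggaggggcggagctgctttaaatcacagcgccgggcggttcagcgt

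In cDC2, infarction went with higher transcript levels of 4 of the 8 genes, all of them surface proteins: E-cadherin, Epcam, angulin 1 and JAM-A. None of the 8 fell in cDC2 under the edgeR test used throughout (quasi-likelihood, Benjamini-Hochberg over 13039 genes, adjusted p under 0.05). Among all genes tested, 4.41% rose and 6.63% fell in cDC2. In cDC1 the same comparison gave 1 gene higher (Lsr) and 3 lower (Epcam, Jup, F11r), where 2.16% of all genes rose and 6.73% fell. In moDCs Lsr and Epcam rose and Jup fell, where 1.52% rose and 3.32% fell. In macrophages Lsr and Ctnnb1 rose and Jup fell, where 4.01% rose and 3.37% fell. The 8 genes were chosen on their cDC2 levels against other cell types, and those levels enter these tests. Nothing is therefore read from the counts of the 8 beside the shares of all genes. All 8 genes passed the filter on low counts, but Cldn1 and Epcam passed through groups other than macrophages, and Cdh1 through groups other than cDC1 and SS macrophages. In bulk libraries a change in the share of cells that carry a transcript and a change in the RNA per cell cannot be told apart.

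**Figure D1:**
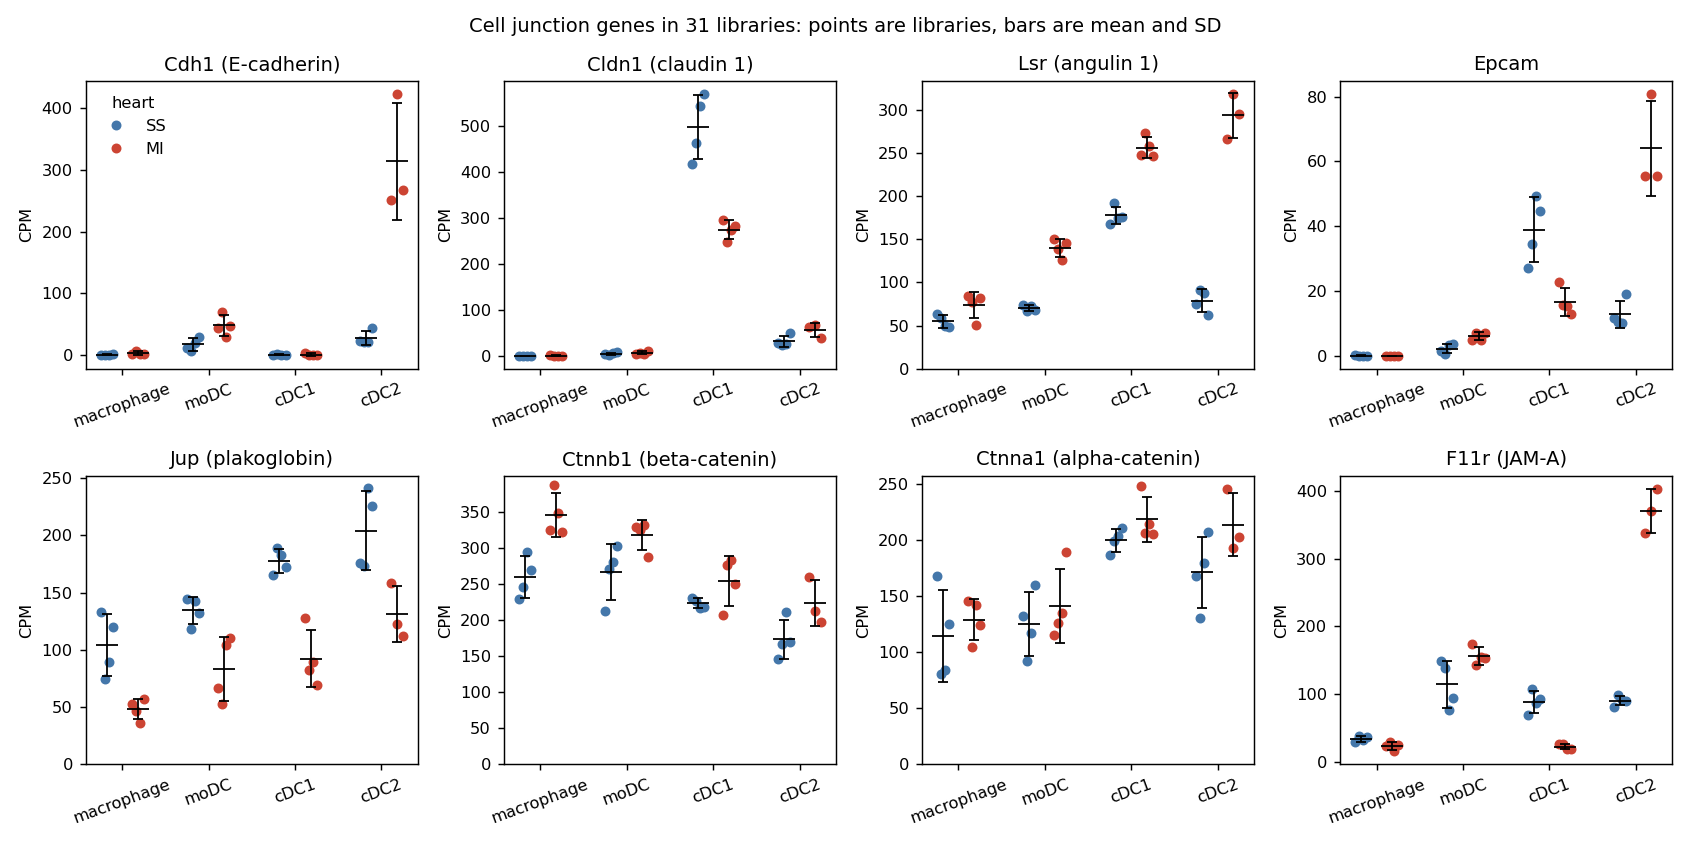
CPM (y axis, linear, a panel per gene) of the 8 genes in 31 libraries of the 4 cell types (x axis) from SS (blue) and MI (red) hearts, with points for libraries and bars for mean and SD. Cdh1 stands out in the 3 MI cDC2 libraries, Cldn1 in cDC1 of both states, and Jup lies lower in MI than in SS in every cell type.

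Cdh1 was read at 251, 422 and 268 CPM in the 3 MI cDC2 libraries. The 4 SS cDC2 libraries held 22.6, 20.7, 22.0 and 44.2 CPM, of which replicate 4 was the highest and still far below every MI library. The rise was 11.4-fold (314 ± 94.4 CPM (SD, n = 3) against 27.4 ± 11.3 CPM (SD, n = 4), log2 change 3.52, SE 0.72, adjusted p = 0.00157). The call depends on the tool: DESeq2 gave the same size of change with an adjusted p of 0.0593.

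In moDCs Cdh1 stood at 44.4, 70.3, 29.8 and 47.9 CPM after MI and at 11.8, 7.44, 20.5 and 30.1 CPM in SS. The lowest MI library lay below the highest SS library, and the difference did not pass (log2 change 1.47, SE 0.66, adjusted p = 0.227). Macrophages held 1.38, 7.34, 1.55 and 2.65 CPM after MI and 0, 0, 0 and 1.65 CPM in SS (log2 change 2.92, SE 1.09, adjusted p = 0.114). All 17 reads of the SS macrophages came from replicate 4, without which the fitted log2 change was 8.11 (edgeR adjusted p = 0.0319) against libraries that are all at 0. cDC1 had 3.91, 0, 0 and 0.512 CPM after MI and 0, 1.61, 0.695 and 0 CPM in SS, so E-cadherin was near or at 0 in most cDC1 libraries. Ordered by mean, MI cDC2 (314 CPM) came first and stood apart from MI moDC (48.1 CPM). MI moDC, SS cDC2 and SS moDC (17.4 CPM) each overlapped the next, and the last of these stood apart from MI macrophages (3.23 CPM). As a description, the level in cDC2 was 1.58 times that of moDCs in SS and 6.52 times in MI.

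Epcam, an adhesion molecule of epithelia, was at 55.6, 80.7 and 55.6 CPM in MI cDC2 and at 11.6, 10.3, 9.96 and 19.0 CPM in SS cDC2. No libraries overlapped, and the rise was 5.02-fold (log2 change 2.33, SE 0.38, adjusted p = 7.61e-05). In cDC1 the direction was the opposite: MI libraries held 22.6, 15.6, 15.4 and 12.7 CPM and SS libraries 26.9, 34.5, 49.4 and 44.7 CPM. Every MI cDC1 library lay below every SS one, a 2.34-fold fall (log2 change -1.23, SE 0.35, adjusted p = 0.0228). That call was lost without any 1 of MI cDC1 replicates 2, 3 and 4 and SS cDC1 replicates 3 and 4 (adjusted p from 0.0551 to 0.0815 in edgeR).

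In moDCs Epcam was low, at 4.95, 7.13, 4.89 and 6.90 CPM after MI and 1.53, 0.385, 3.25 and 3.49 CPM in SS, and rose 2.85-fold (log2 change 1.51, SE 0.39, adjusted p = 0.0198). This call was lost without any 1 of MI moDC replicates 2 and 4 and SS moDC replicates 1 and 2 (edgeR adjusted p up to 0.0701). In SS moDC replicates 1 to 4, the 8 macrophage markers summed to 14966, 17458, 8687 and 11373 CPM. MI moDCs held 8136 to 10060 CPM of them, overlapping SS. The part of this sum in the moDC results of Epcam and the other genes was not tested. Macrophages had 0 Epcam reads in the 4 MI libraries and 1 read in the 4 SS libraries, so no fold is given. In order of means, Epcam ran from MI cDC2 (64.0 CPM) over SS cDC1 (38.9 CPM) to MI cDC1 (16.6 CPM), each apart from the next, and MI cDC1 overlapped SS cDC2 (12.7 CPM). cDC2 had 0.328 times the Epcam of cDC1 in SS and 3.86 times in MI.

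Keratins and other epithelial genes were at or near 0 where Cdh1 and Epcam were highest. In MI cDC2, 10 of 12 epithelial markers had 0 reads in all 3 libraries (Krt5, Krt14, Krt8, Krt18, Krt19, Elf3, Esrp1, Grhl2, Cldn4, Rab25), and the sum of the list was 0.0992 to 0.753 CPM. In SS cDC2, 7 of 12 were at 0 and the sum was 1.31 to 2.16 CPM, higher than in MI. Mesothelial markers summed to at most 2.28 CPM in any library. Markers of mature dendritic cells, 10 genes including Ccr7 and Fscn1, summed to 2391, 970.5 and 692.9 CPM in MI cDC2 replicates 1 to 3, and to 142.1, 488.8, 1501 and 497.7 CPM in SS cDC2. The 2 states overlapped in this sum, and its part in these results was not tested. The 8 macrophage markers summed to 1561 to 2331 CPM in MI cDC2 and 3072 to 4402 CPM in SS cDC2, and the part of that difference in these results was not tested. The 8 cDC1 markers summed to 630 to 729 CPM in MI cDC2 and 498 to 611 CPM in SS cDC2, without overlap. The part of this shift was not tested either.

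**Figure D2:**
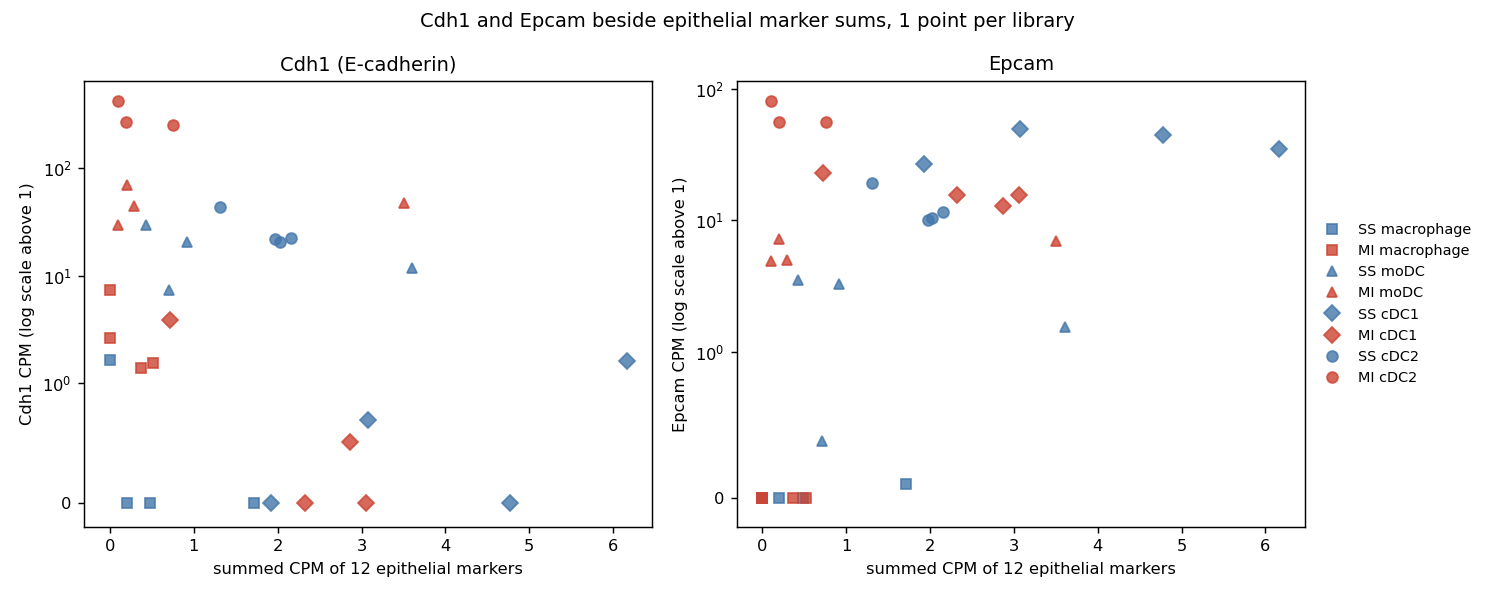
CPM of Cdh1 (left) and Epcam (right) on the y axis (linear to 1, logarithmic above) against the summed CPM of 12 epithelial markers (x axis), with a point per library, colour for state and shape for cell type. The MI cDC2 libraries have the highest Cdh1 and Epcam and marker sums of at most 0.753 CPM.

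Claudin 1, a sealing protein of tight junctions, was a transcript of cDC1. SS cDC1 held 418, 463, 543 and 569.9 CPM and MI cDC1 295, 247, 274 and 282 CPM. Every MI library lay below every SS library, yet the difference did not pass in edgeR (log2 change -0.86, SE 0.30, adjusted p = 0.0779). It passed when only the 2 cDC1 groups were fitted, with a log2 change of -0.87 (adjusted p = 1.05e-04).

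cDC2 had less Cldn1, at 62.2, 67.2 and 38.4 CPM after MI and 26.7, 22.7, 24.6 and 49.9 CPM in SS. SS replicate 4 lay within the MI range and the difference did not pass (log2 change 0.85, SE 0.34, adjusted p = 0.104). Without that library the log2 change was 1.18 (adjusted p = 0.0217). moDCs held 4.66, 5.75, 3.79 and 10.9 CPM after MI and 3.88, 1.48, 4.77 and 7.20 CPM in SS. In macrophages 5 reads fell on Cldn1 in the 4 MI libraries and 1 read in the 4 SS libraries, a ratio of 4.48 with an exact 95% interval of 0.501 to 212 that covers counting error only. cDC2 had 16.1 times less Cldn1 than cDC1 in SS and 4.90 times less in MI. SS cDC1, MI cDC1 and MI cDC2 stood apart from each other in that order, and MI cDC2 overlapped SS cDC2.

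Angulin 1 (Lsr), which draws tricellulin to the points where 3 cells meet, was higher after MI in all 4 cell types. MI cDC2 held 266, 318 and 295 CPM against 75.2, 91.4, 87.6 and 61.7 CPM in SS. The libraries of the 2 states lay far apart, and the rise was 3.71-fold (log2 change 1.89, SE 0.14, adjusted p = 4.49e-11). In moDCs 150.2, 139, 126 and 145 CPM stood against 73.9, 66.4, 72.5 and 67.5 CPM, a 2.00-fold rise (log2 change 1.00, SE 0.13, adjusted p = 8.73e-06). In cDC1 247, 272, 258 and 246 CPM stood against 168, 192, 175 and 175 CPM, a 1.44-fold rise (log2 change 0.53, SE 0.13, adjusted p = 0.00770). The states overlapped in macrophages alone, with 84.3, 77.4, 51.0 and 82.1 CPM after MI and 63.9, 58.9, 49.1 and 48.2 CPM in SS (log2 change 0.42, SE 0.13, adjusted p = 0.0462). The macrophage call was lost without any 1 of MI replicates 1, 2 and 4 and SS replicates 2, 3 and 4 (edgeR adjusted p up to 0.152). In SS, Lsr was highest in cDC1 (178 CPM). After MI, cDC2 (293 CPM) and cDC1 (256 CPM) overlapped at the top of the order.

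JAM-A (F11r), an immunoglobulin-family protein of tight junctions that leukocytes also carry, moved in opposite directions in the 2 conventional dendritic cell types. MI cDC2 held 338, 369 and 402 CPM and SS cDC2 81.6, 98.3, 91.7 and 90.1 CPM, a 4.09-fold rise with no overlap (log2 change 2.03, SE 0.19, adjusted p = 4.71e-09). MI cDC1 held 26.2, 26.8, 19.7 and 19.1 CPM and SS cDC1 69.0, 108, 86.5 and 92.8 CPM, a 3.88-fold fall, again with no overlap (log2 change -1.96, SE 0.18, adjusted p = 4.83e-09). In SS the 2 cell types held nearly the same level, with a cDC2 to cDC1 ratio of 1.01, and after MI the ratio was 16.1.

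SS cDC1 libraries also carried more endothelial transcripts (8 markers, 54.9 to 231 CPM in SS, 6.21 to 10.9 CPM in MI) and mural transcripts (7 markers, 71.2 to 257 CPM in SS, 0.205 to 2.76 CPM in MI). Between states, these sums were lower after MI together with F11r, Epcam, Jup and Cldn1 in cDC1. Within SS cDC1, the endothelial sums of replicates 1 to 4 were 111, 231, 63.3 and 54.9 CPM. In the same order F11r stood at 69.0, 108, 86.5 and 92.8 CPM and Jup at 165, 189, 182 and 172 CPM. Epcam stood at 26.9, 34.5, 49.4 and 44.7 CPM and Cldn1 at 418, 463, 543 and 569.9 CPM. The part of the endothelial and mural sums in the cDC1 results was not tested. In moDCs F11r stood at 174, 143, 155 and 154 CPM after MI and 149, 139, 76.8 and 94.4 CPM in SS, overlapping (log2 change 0.44, SE 0.17, adjusted p = 0.147). Macrophages had 23.2, 30.0, 16.5 and 25.6 CPM after MI and 29.1, 38.1, 32.5 and 36.5 CPM in SS (log2 change -0.51, SE 0.18, adjusted p = 0.0817).

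Of the plaque proteins, plakoglobin (Jup), which links cadherins to the cytoskeleton in adherens junctions and desmosomes, lay lower after MI in all 4 cell types with no overlap between states in any of them. Macrophages held 52.3, 46.4, 36.2 and 56.4 CPM after MI and 133, 74.0, 89.2 and 119.7 CPM in SS, a 2.17-fold fall (log2 change -1.12, SE 0.21, adjusted p = 5.71e-04). cDC1 held 127, 82.0, 89.3 and 69.3 CPM after MI and 165, 189, 182 and 172 CPM in SS, a 1.93-fold fall (log2 change -0.95, SE 0.20, adjusted p = 0.00234). The fall passed in these 2 cell types and, at the edge of the threshold, in moDCs. Jup is also a gene of cardiomyocyte junctions. In macrophages, 10 cardiomyocyte markers summed to 94.4 to 129.8 CPM in SS and 43.2 to 76.6 CPM in MI. In moDCs they summed to 43.9 to 135 CPM in SS and 11.1 to 32.6 CPM in MI. In cDC1 they summed to 23.6 to 51.3 CPM in SS and 8.23 to 20.3 CPM in MI. The states did not overlap in these sums. In cDC2 the sums overlapped (10.8 to 20.4 CPM in SS, 5.65 to 16.8 CPM in MI). Their part in the Jup results was not tested.

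moDCs held 66.8, 52.9, 104 and 109.9 CPM after MI and 145, 118, 142 and 132 CPM in SS (log2 change -0.69, SE 0.20, adjusted p = 0.0449), and the moDC call was lost without any 1 of MI replicates 1 and 2 and all SS replicates (adjusted p up to 0.209). cDC2 held 158, 122 and 112 CPM after MI and 175, 174, 241 and 226 CPM in SS, where the change missed the threshold in edgeR (log2 change -0.64, SE 0.22, adjusted p = 0.0571) and passed in DESeq2 (adjusted p = 0.0360). SS cDC2 (204 CPM) and SS cDC1 (177 CPM) overlapped at the top of the order.

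Beta-catenin (Ctnnb1) was read in every library at 146.3 to 387 CPM. It rose 1.33-fold in macrophages, from 228, 246, 294 and 269.6 CPM in SS to 325, 387, 348 and 322 CPM (log2 change 0.41, SE 0.12, adjusted p = 0.0338). No libraries overlapped there, but the call was lost without any 1 of MI replicates 2 and 3 and SS replicates 1 and 2 (edgeR adjusted p up to 0.113). In cDC2, 259, 212 and 197 CPM after MI and 146, 166, 211 and 169 CPM in SS overlapped (log2 change 0.37, SE 0.13, adjusted p = 0.0691). In cDC1 and moDCs the log2 changes were 0.19 and 0.26, neither past the threshold. Each neighbour in the order from MI macrophages (346 CPM) to SS cDC2 (173 CPM) overlapped the next.

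Alpha-catenin ties the cadherin complex to actin. Its gene lies, on the same build, as Ctnna1 on chromosome 18 from 35118859 to 35254779 (plus strand), with Lrrtm2 inside it on the opposite strand. Ctnna1 was likewise present everywhere, at 80.6 to 248.6 CPM. Its group means ran from 114 CPM in SS macrophages to 219 CPM in MI cDC1, with overlap between all neighbours. In cDC2 it stood at 246, 193 and 203 CPM after MI and 168, 130.3, 179 and 208 CPM in SS (log2 change 0.32, SE 0.20, adjusted p = 0.345). The log2 changes in the other 3 cell types were 0.13 (cDC1), 0.18 (moDC) and 0.17 (macrophage), none past the threshold.

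**Figure D3:**
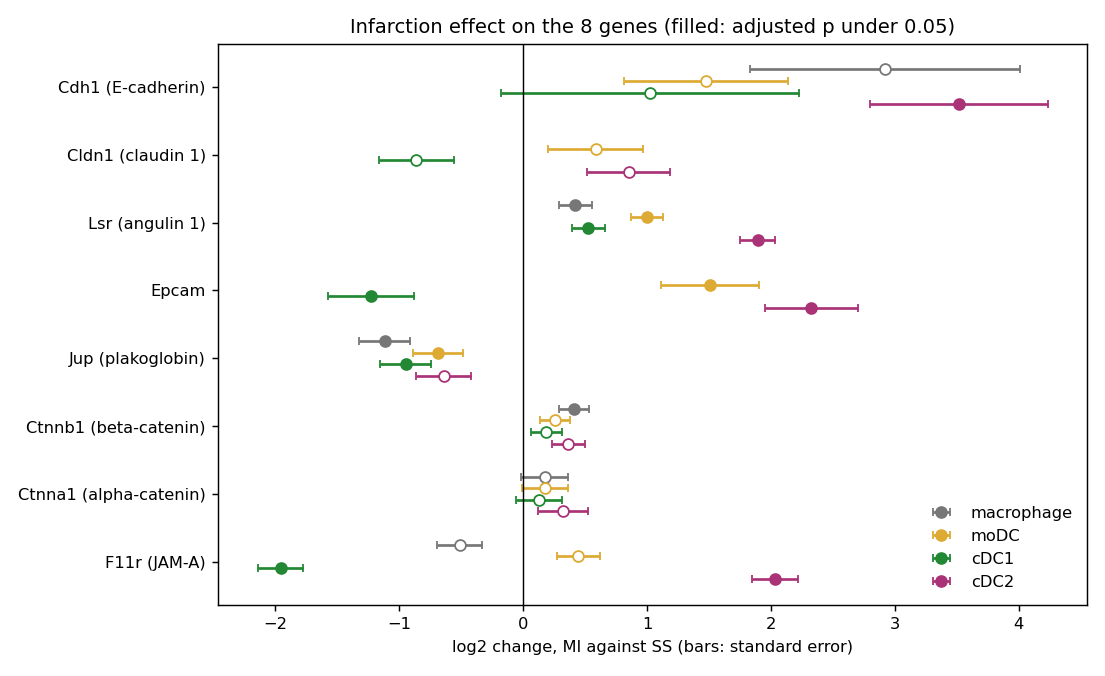
Log2 change after MI (x axis, bars are standard errors derived from edgeR's F statistic) of the 8 genes (y axis) in the 4 cell types, filled where edgeR's adjusted p was under 0.05. Cldn1 and Epcam in macrophages are left out because at most 5 reads were counted in a state. Epcam and F11r lie on opposite sides of 0 in cDC1 and cDC2, and Jup lies below 0 throughout.

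The changes after infarction in cDC2 and in each other cell type are set side by side as a description, since these differences are built from the cDC2 levels that led to the choice of the genes. Against cDC1, the log2 change in cDC2 was higher by 3.99 for F11r (SE 0.26), by 3.56 for Epcam (SE 0.51), by 1.71 for Cldn1 (SE 0.45) and by 1.37 for Lsr (SE 0.19). F11r and Epcam went up in every MI cDC2 library and down in every MI cDC1 library, relative to all SS libraries of the cell type. Against macrophages the difference was 2.55 for F11r and 1.47 for Lsr, and against moDCs it was 1.59 and 0.89. For Jup, Ctnnb1 and Ctnna1 the 9 differences lay between -0.05 and 0.48. These 3 sets of differences share the cDC2 libraries. Their SEs, derived from edgeR's F statistic, are given for scale with no test.

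For Cdh1 the log2 differences were 2.04 against moDCs (SE 0.95), 2.49 against cDC1 (SE 1.48) and 0.60 against macrophages (SE 1.53). The last 2 rest on few reads and single libraries decide them. Against cDC1 the difference was 5.12 without MI cDC1 replicate 1 and 1.11 without SS cDC1 replicate 2. Against macrophages it was 1.33 without MI macrophage replicate 2 and turned to -4.59 without SS macrophage replicate 4, when the SS macrophages are all at 0.

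Per length of exon (RPKM, CPM per kilobase of summed exons), the genes could be set beside each other. In SS cDC2, Lsr (36.3), F11r (34.0), Ctnnb1 (33.3), Jup (31.7) and Ctnna1 (26.7 RPKM) were of like level, and Cldn1 (6.40), Cdh1 (5.98) and Epcam (5.79 RPKM) were several times lower. In MI cDC2, F11r (139 RPKM) and Lsr (135 RPKM) led, and Cdh1 at 68.6 RPKM stood above its partners Ctnnb1 (42.9), Ctnna1 (33.3) and Jup (20.3 RPKM). Epcam (29.1 RPKM) and Cldn1 (11.6 RPKM) stayed lower. In SS cDC1, Cldn1 was the highest of the 8 at 103 RPKM, followed by Lsr at 81.7 RPKM, while Cdh1 was at 0.126 RPKM. SS macrophages carried Ctnnb1 at 50.0 RPKM and Cdh1 at 0.0902 RPKM. These values assume that the whole exon length was covered.

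A wider list of 134 junction and junction-linked genes was followed beside the 8, of which 124 had reads and 96 were tested. It was drawn up with cDC2 against other cell types in view and with earlier results of these data known. Those cDC2 levels enter the MI tests in cDC2 and the differences of MI effects, so nothing is read from these counts. In cDC2, 8 rose and 6 fell after MI, where 4.41% of all genes rose and 6.63% fell, with a median log2 change of 0.12 against -0.03 over all genes. Tjp3, a scaffold of tight junctions, went from 2.77 to 8.33 CPM in SS to 19.0 to 21.6 CPM in MI (log2 change 1.75, SE 0.32, adjusted p = 2.92e-04). Ctnnd1, the p120 catenin that holds cadherins at the membrane, rose (log2 change 0.66, SE 0.18, adjusted p = 0.0128), as did the actin crosslinker Actn1 (1.94, 0.00145). Both nectin-family genes that passed rose, Pvrl4 (nectin 4, 1.60, 0.00101) and Cadm1 (0.83, 0.00326). Cadm1 is also among the cDC1 markers, whose sum was higher in every MI cDC2 library than in any SS cDC2 library. The protease inhibitor gene Spint2 (1.51, 0.0436) and the cyclin gene Ccnd1 (0.70, 0.0350) rose too.

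Zeb1, known as a repressor of E-cadherin, rose in cDC2 as well, from 6.82 to 10.3 CPM to 14.7 to 27.3 CPM (log2 change 1.39, SE 0.39, adjusted p = 0.0158). Its relative Zeb2 stood at 151 CPM in SS cDC2 and 184 CPM in MI cDC2, and at 1.35 and 0.905 CPM in SS and MI cDC1, where Cdh1 was near 0. The part of Zeb1 and Zeb2 in the Cdh1 levels was not tested. Of the 6 genes that fell in cDC2, Itgal, Cd44 and Klrg1 code for receptors. Itgal, the alpha chain of the integrin LFA-1, which binds JAM-A, went from 310.4 to 869 CPM to 53.3 to 61.2 CPM (log2 change -3.22, SE 0.32, adjusted p = 8.36e-08). Cd44 (-1.13, 6.25e-08), the claudin-domain gene Cldnd1 (-0.91, 0.00173), the transcription factor gene Tcf7l2 (-1.22, 0.00902) and the ZO-1 partner Ybx3 (-0.55, 0.0155) fell. Klrg1, an E-cadherin receptor of lymphocytes, had 40 reads in SS cDC2 and 0 in MI cDC2, and T and NK cell markers summed to 10.5 to 20.8 CPM in SS cDC2 and 0 to 1.73 CPM in MI, whose part was not tested. Without MI cDC2 replicate 1, 7 of the list passed in cDC2. Occludin (Ocln), read at 10.3 to 13.8 CPM in MI cDC2 and 0 to 1.64 CPM in SS cDC2, was not among the genes that passed.

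**Figure D4:**
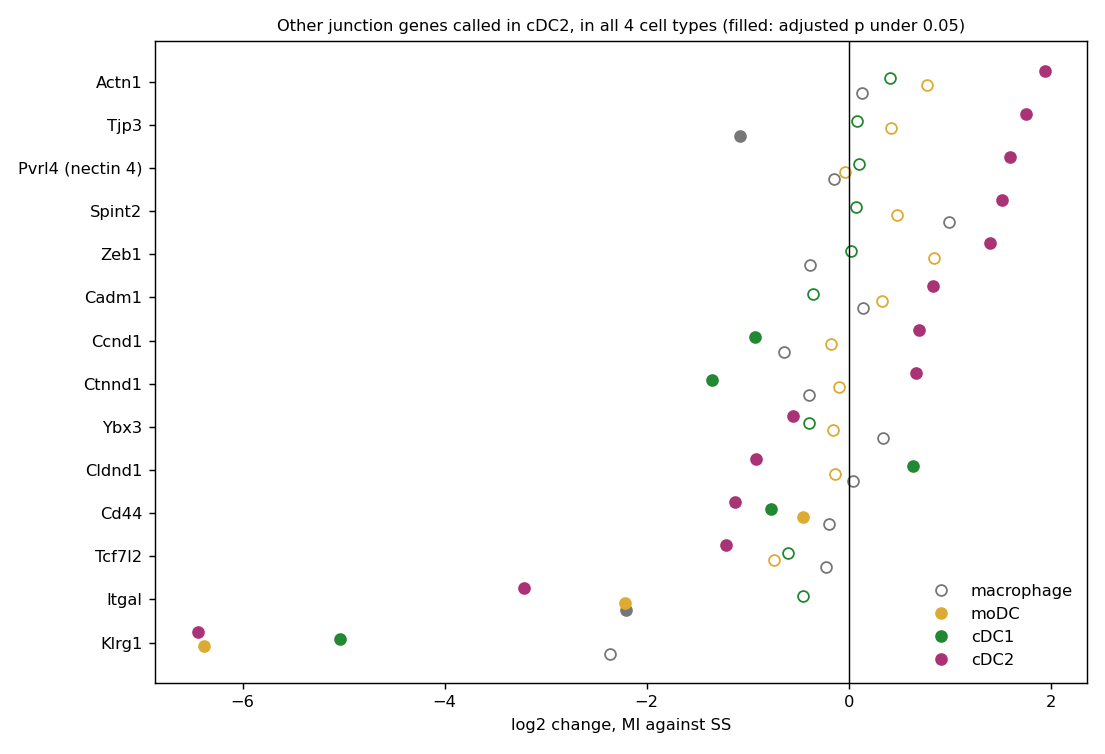
Log2 change after MI (x axis) of the 14 listed junction and junction-linked genes that passed in cDC2 (y axis). They are shown in all 4 cell types and filled where edgeR's adjusted p was under 0.05. Ctnnd1 and Ccnd1 lie above 0 in cDC2 and below 0 in cDC1, and Klrg1, with 0 reads in MI cDC2 and MI moDCs, has fitted values that depend on the prior count.

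In cDC1, 2 of the 96 rose and 18 fell after MI, where 2.16% of all genes rose and 6.73% fell, with a median log2 change of -0.35 against -0.03 over all genes. The catenin gene Ctnnd1 fell (log2 change -1.35, SE 0.17, adjusted p = 1.52e-06), as did Cd44 (-0.77, 9.95e-06), Myc (-0.91, 9.77e-04) and Ccnd1 (-0.93, 0.00271). Cldnd1 (0.63, 0.0200) and the integrin gene Itgb2 (0.46, 0.0311) rose. Others that fell are junction genes known from endothelium: Cldn5 went from 462 reads in SS to 0 in MI, Jam2 from 684 to 0, Jam3 from 232 to 0, and Gja5 from 679 to 5. Cldn5, Cdh5 and Esam, which passed as well, also belong to the 8 endothelial markers that were lower in MI cDC1. Without any 1 of the 4 MI cDC1 replicates or SS cDC1 replicate 2, 11 to 13 of the list passed, and 13 with SS numbers 1 and 4 alone or 2 and 3 alone.

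In moDCs 1 of the 96 rose, Pvr (0.67, 0.0490), and 8 fell, where 1.52% of all genes rose and 3.32% fell, with a median log2 change of -0.14. Among these were Itgal (-2.22, 8.73e-06) and Cd44 (-0.46, 0.00902), and Gja5, which went from 505 reads to 0 while the endothelial sum was 97.7 to 352 CPM in SS and 55.0 to 77.1 CPM in MI. In macrophages 3 rose and 5 fell, where 4.01% of all genes rose and 3.37% fell, with a median of -0.20. Nectin 2 (Pvrl2, 1.73, 0.0315), the scaffold gene Iqgap1 (0.86, 0.0286) and Itgb2 (0.59, 0.00621) rose. Itgal (-2.20, 5.84e-06) and Tjp3 (-1.08, 0.0248) fell. The macrophage count of 8 was not stable: it was 4 without MI macrophage replicate 3, 2 without MI replicate 4, 3 without SS replicate 2 or 3, 5 with SS numbers 1 and 4 alone, 13 with 2 and 3 alone and 14 with DESeq2. The moDC count of 9 was 5 without MI moDC replicate 2, 3 or 4, and 4 without SS moDC replicate 2 or with SS numbers 1 and 4 alone.

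The effect of MI differed among the 4 cell types for 15 of the 96 genes, where 6.8% of all genes passed, and for 9 with SS numbers 1 and 4 alone. Against cDC1 it was higher in cDC2 for 6 and lower for 2, where 4.21% of all genes differed in either direction. With DESeq2 this count was 13, and 14 with the compared groups only. Ctnnd1 had the smallest adjusted p of these (log2 difference 2.01, SE 0.25, adjusted p = 5.30e-06), and Cadm1 (1.19, 0.00452), Ccnd1 (1.63, 7.32e-04) and Tjp3 (1.67, 0.0207) were higher too. Against macrophages 5 were higher and 5 lower, where 4.49% of all genes differed, led by Tjp3 (2.83, 9.06e-05). The count was 6 without MI cDC2 replicate 1 and 17 with DESeq2. Against moDCs Cd44 alone passed in edgeR, where 0.905% of all genes did, lower in cDC2 (-0.68, 0.0290). With 1 library left out, 0 to 3 of the list passed against moDCs, and with DESeq2 4 did. These differences are built from the cDC2 levels in view when the list was drawn up. Their adjusted p-values are therefore no independent support.

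Between cell types, the same list was set against the background of all genes. In SS, cDC2 had 14 of the 96 genes higher and 17 lower than cDC1 (16.4% and 11.7% of all genes), 12 higher and 8 lower than moDCs (7.35% and 8.05%), and 22 higher and 14 lower than macrophages (19.1% and 16.2%). In MI, cDC2 had 23 higher and 9 lower than cDC1 (16.2% and 10.6%), 7 higher and 2 lower than moDCs (4.49% and 5.66%), and 29 higher and 11 lower than macrophages (13.8% and 12.6%). The list was drawn up with this contrast in view, and nothing is read from these counts. CD103 (Itgae), the integrin chain that binds E-cadherin, was a cDC1 transcript, at 615 to 871 CPM in SS cDC1 and 0.958 to 8.93 CPM in SS cDC2. Its partner Itgb7 was in both, at 1331 to 1448 CPM and 794 to 827 CPM. The angulin relative Ildr1 was at 54.2 to 69.5 CPM in SS cDC1 and 3.63 to 5.24 CPM in SS cDC2. The desmosome gene Pkp3 was read at 33.8 to 45.5 CPM in SS cDC1 and 33.1 to 40.9 CPM in SS cDC2, and the scaffold gene Tjp1 (ZO-1) at no more than 1.70 CPM in any cDC2 library.

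Across the 31 libraries, which share cell types and states, the named genes with log2 CPM most like Cdh1 among 12296 compared were Fgr (Pearson's r 0.905), Eno1b (0.898), Msn (0.898), Il7r (0.895), Vdr (0.894) and Cers6 (0.894). Fgr codes for a Src-family kinase, Msn for moesin, Il7r for the interleukin 7 receptor and Vdr for the vitamin D receptor. Of the other 7 junction genes, F11r was closest to Cdh1 (r 0.759), and Cldn1 had an r of 0.028. Most like Cldn1 were Ffar4 (0.986), Sept3 (0.986), Pfkp (0.974), Btla (0.973), Nup210 (0.971) and Flt3 (0.970), of which Flt3 is the growth factor receptor of conventional dendritic cells and Btla an inhibitory receptor. Ffar4 stood at 101 CPM in SS cDC1 and 87.0 CPM in MI cDC1, against 5.25 and 16.1 CPM in cDC2. Epcam was the junction gene closest to Cldn1 (r 0.933). These correlations describe shared differences between cell types and carry no test.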

How the data were processed

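The deposited values are raw read counts, whole numbers per gene symbol (24421 in each library). The labels' protocols describe SMART-Seq v4 amplification of 4 ng of RNA and single-end NextSeq500 reads. The submitters' processing notes name the mm10 genome, TopHat2 2.1.0, SAMtools 0.1.18, Trimmomatic 0.35 and FastQC 0.11.4. How reads were assigned to genes, with which annotation and whether by strand, is not given in the sources used here. Entries that name no gene stayed out of library sizes and tests, and reads in no feature were 6.42% to 16.9% of a library's entries.

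CPM with TMM factors and all tests came from edgeR 4.0.16 in R 4.3.3 (quasi-likelihood, robust), in 1 model with a mean for each of 8 groups over 31 libraries. The filterByExpr step, applied by group with a minimum count of 10, kept 13039 genes, over which the Benjamini-Hochberg adjustment ran. Contrasts were MI against SS per cell type and cDC2 against each other cell type per state. For the further listed genes and over all genes, differences of MI effects were contrasts too. DESeq2 1.42.0, RLE and upper-quartile factors, no filter, compared groups only, a replicate block, SS subsets and leaving out each library were the alternatives. The script was tested on simulated data. Replicates differed by more than counting noise in every group (a chi-square of 10.83 or more for each degree of freedom). Same-numbered libraries deviated together (r over 0.1 in every pair) in SS cDC2 and SS macrophages (0.109 to 0.16). The same held for SS macrophages and SS moDCs (0.119 to 0.203). In all, 15 of 45 pairs within a state passed 0.1. No pair of an MI with an SS library did, and the labels do not say that a number marks 1 mouse. Each SE was derived from edgeR's F statistic, as the size of the log2 change divided by the square root of F. RPKM used summed GENCODE M21 exon lengths on GRCm38. Promoters are from RefSeq (GRCm38.p6).

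The 8 genes and the gene lists were chosen with earlier results of these data known. The 134 further junction and junction-linked genes (all found, 7 under an older symbol such as Pvrl4) were listed by role. So were 41 sort markers (all found) and 75 markers of other cells (74 found). Named genes were all 8, the 6 nearest in pattern to Cdh1 and to Cldn1 (predicted, unnamed and Y-linked genes and Xist left out), and up to 3 called genes per role and direction. Itgae, Itgb7, Ildr1, Pkp3, Tjp1, Ocln and Zeb2 were named after their values were seen. PCR copies carry no molecular identifier here, so intervals cover counting error only.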

Additional observations from a re-analysis of the deposited data

Results flagged for a closer look

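Of 55 groups of 4 libraries in which a member's values were checked, 8 had a library set apart from the others of its group by more than Dixon's 95% limit. The chance rate of about 1 in 20 holds for continuous values only. Where all other libraries of a group are at 0, any read passes the limit, so the 8 are not set against that rate. SS cDC2 replicate 4 was high for both Cdh1 (44.2 CPM) and Cldn1 (49.9 CPM). Several of the others rest on few reads. Cdh1 was read at 1.65 CPM in SS macrophage replicate 4 and at 3.91 CPM in MI cDC1 replicate 1. Cldn1 was read at 0.0953 CPM in SS macrophage replicate 1 and at 0.459 CPM in MI macrophage replicate 1, and Epcam at 0.0953 CPM in SS macrophage replicate 1, where the other 3 libraries of the group had 0. Ctnnb1 was low in MI moDC replicate 4, at 287 CPM (286.958).

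Every MI library lay above every SS library in cDC2 and below every SS library in cDC1 for 2 genes, with a log2 difference between the 2 effects of 3.99 for F11r and 3.56 for Epcam. These differences were not tested, because the genes were chosen on cDC2 against other cell types.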

How the results depend on the processing

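The rises of Lsr, Epcam and F11r in cDC2, of Lsr in moDCs, and the falls of F11r and Jup in cDC1 kept their direction and call under every alternative run. With DESeq2, Cdh1 in cDC2 (3.51) no longer passed, while Jup (-0.65) and Ctnnb1 (0.36) in cDC2 did, and 233 genes differed between cDC2 and moDCs in their MI effect. Lsr in macrophages no longer passed with RLE factors (0.41), upper-quartile factors (0.35), no filter (0.43), compared groups only (0.43), or against SS numbers 1 and 4 (0.38) or 2 and 3 (0.45). Ctnnb1 in macrophages was lost with upper-quartile factors (0.34) and against SS numbers 1 and 4 (0.46) or 2 and 3 (0.35). Jup in moDCs was lost with no filter (-0.66), compared groups only (-0.69) and SS numbers 1 and 4 (-0.74) or 2 and 3 (-0.64), and Epcam in moDCs with compared groups only (1.48) and SS numbers 1 and 4 (1.26). SS numbers 2 and 3 alone also lost Jup in macrophages (-0.77) and Lsr in cDC1 (0.48), and gained Ctnna1 in macrophages (0.65) and Cldn1 in cDC2 (1.24). Upper-quartile factors gained F11r in macrophages (-0.59) and Jup in cDC2 (-0.67), and compared groups only gained Cldn1 in cDC1 (-0.87) and Jup in cDC2 (-0.62). With SS numbers 1 and 4 alone the difference of the Cdh1 change in cDC2 from that in cDC1 turned to -3.29. SS cDC1 replicates 1 and 4 held 0 Cdh1 reads, so the fitted cDC1 change there depends on the prior count. The causes were not tested.

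With the replicate block, F11r in macrophages (-0.53), Cldn1 in cDC1 (-0.85) and cDC2 (1.08), and Jup (-0.61) and Ctnnb1 (0.38) in cDC2 passed, and 189 genes differed in MI effect between cDC2 and moDCs. Same-numbered libraries of a cell type in SS and MI had correlated deviations (r over 0.1) in 0 of 15 pairs, and those of a state in 15 of 45. cDC2 against moDCs in SS gave 1202 genes with compared groups only, 1182 with SS numbers 1 and 4 and 896 with 2 and 3, and in MI 2188 with compared groups only. The 4 cell types differed in MI effect for 583 genes with SS numbers 1 and 4. With upper-quartile factors 39.6% of calls in macrophages were rises, against 54.3%, and the median of all genes was -0.10.

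Leaving out each library, log2 changes in macrophages ranged from 0.36 to 0.57 (Lsr), 0.36 to 0.49 (Ctnnb1), -0.63 to -0.37 (F11r) and 2.19 to 8.11 (Cdh1). In moDCs they ranged from -0.83 to -0.50 (Jup) and 1.12 to 1.85 (Epcam), in cDC1 from -1.40 to -1.09 (Epcam), and in cDC2 from 0.25 to 0.47 (Ctnnb1) and 0.70 to 1.18 (Cldn1). The difference of the Cldn1 change in cDC2 from that in macrophages ranged from -2.52 to 2.48 (without SS and without MI macrophage replicate 1). Genes called ranged from 882 (without MI cDC2 replicate 1) to 1550 in cDC2, 407 (without SS moDC replicate 2) to 741 in moDCs, 58 (without MI cDC2 replicate 2) to 225 (without SS moDC replicate 3) for the difference between them, and 792 (without MI cDC2 replicate 2) to 1174 for cDC2 against moDCs in MI. Cldn1 and Epcam had at most 5 reads per state in macrophages, too few to show a change.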
